A study of Mactra quadrangularis with 6 samples.

Results

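The 54 genes of this report are described as encoding proteins of the mitochondrial ribosome, or factors that work with it, in the surf clam Mactra quadrangularis. They are all the genes of the deposited table whose description names a mitochondrial, 28S or 39S ribosomal protein, or a mitochondrial initiation, elongation or release factor, out of 25145 genes in all. By their descriptions, 22 belong to the small (28S) subunit, 27 to the large (39S) subunit, and 5 are translation factors. The data are 6 messenger RNA libraries from mantle, the sheet of tissue under the shell that builds it. In 3 libraries the clams are labelled as under ocean acidification stress, and in the other 3 as controls in normal seawater. The series text speaks of high pH in the stress groups, which goes against the word acidification, so acidified is used here as the labels' name only. It also says that clams of different shell colours were divided between treatments, without giving the colour of the clams in these libraries. The strain, age, duration and pH, and whether each library is 1 animal or a pool, are unstated in the labels used here, so that the spread behind each p-value may be technical.

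Mitochondria keep a ribosome of their own, related to the bacterial one, which translates the few messages encoded in mitochondrial DNA, mostly subunits of the respiratory chain. All of its proteins are encoded in the nucleus in animals, made in the cytosol and imported. Some have counterparts in bacteria, and others were added in the mitochondrial line.

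The description rule was compared with the other annotation in the table. Of the 54 genes, 48 carried at least 1 gene ontology term that names the mitochondrion, and 30 a term for the mitochondrial ribosome or one of its subunits. No large-subunit gene carried a small-subunit term, and no small-subunit gene a large-subunit term. The S36 gene (Mve10G011060) was annotated instead to the mitochondrial oxoglutarate dehydrogenase complex, of which the human S36 protein is now known to be a part. The L4 gene (Mve19G005570) carried a term for the cytosolic ribosome despite its description. In mammals the proteins named S18a and S30 sit in the large subunit, so the names do not always give the place. S36, L4 and S18a were nevertheless kept in all counts below, in the subunit that their description gives. The genes lay on 17 of 19 numbered chromosomes, with 8 each on chromosomes 2 and 8, and 2 lay on other contigs. The S21 gene and the release factor 1-like gene were 4023 bases apart on the same strand of chromosome 16, with 1 gene between them. The 2 genes described as S33 were 19471 bases apart on chromosome 8, and the 2 described as S25 were 667109 bases apart on the same chromosome.

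Total counts ran from 28482358 to 37066703 per library, and all 54 genes passed the filter on low counts, the lowest count of any of them in any library being 47. On the first principal component of all genes the 3 control libraries lay close together, at 47.9 to 51.5, while acidified replicates 1, 2 and 3 lay at -2.04, -34.5 and -113. Summed FPKM of 15 muscle genes was 2579 to 4306 in the acidified and 3447 to 5479 in the control libraries, and that of 61 mantle and shell genes 1398 to 1836 and 1392 to 1544. Of the mantle list, 4 genes had no count in any library. The sums did not overlap for 16 digestive gland genes (50.4 to 65.7 acidified, 35.1 to 49.3 control, 4 with no count anywhere) and 12 germ line genes (56.6 to 62.9 and 63.8 to 68.0). They overlapped for 48 cilia genes (369.5 to 406.7 and 372.8 to 474.7, 1 with no count anywhere). They also overlapped for 135 haemocyte genes (1331 to 1851 and 1121 to 1402, 19 with no count anywhere). The TMM-scaled CPM used for the fold changes were summed over the tested genes of each list only. These sums did not overlap for 62 haemocyte genes (1883 to 2354 acidified, 1311 to 1529 control) and 5 digestive gland genes (134.7 to 165.2 and 72.1 to 83.2). Those of the other 4 lists overlapped, including 10 germ line genes (139.1 to 151.3 and 146.5 to 149.5). The FPKM sums cover the whole lists, so both the scaling and the set of genes differ between the FPKM and CPM sums. All these lists were picked by words in the gene descriptions, so the name of a list does not show which cells made its transcripts. The part of other cell types in the results below was not tested. In such bulk tissue, more cells of a type and more RNA per cell cannot be told apart.

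Transcripts of the mitochondrial ribosome lay above the median gene and far below those of the cytosolic ribosome. In FPKM, the deposited unit, in which counts are divided by library size and by the length of the transcript, the mean over the 6 libraries ran from 3.83 (S7) to 75.8 (S24) among ribosomal proteins, with a median of 15.2 for the small subunit and 25.8 for the large one. The most abundant large-subunit transcript was L15 at 70.1. The 5 translation factors were lower, from 2.73 for the release factor 1-like gene to 9.29 for the initiation factor IF-2 gene, with a median of 7.80. For scale, the median over all 17790 genes tested was 2.79, over 61 cytosolic ribosomal protein genes 1840, and over 51 genes of the respiratory chain and its assembly 198.

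**Figure D1:**
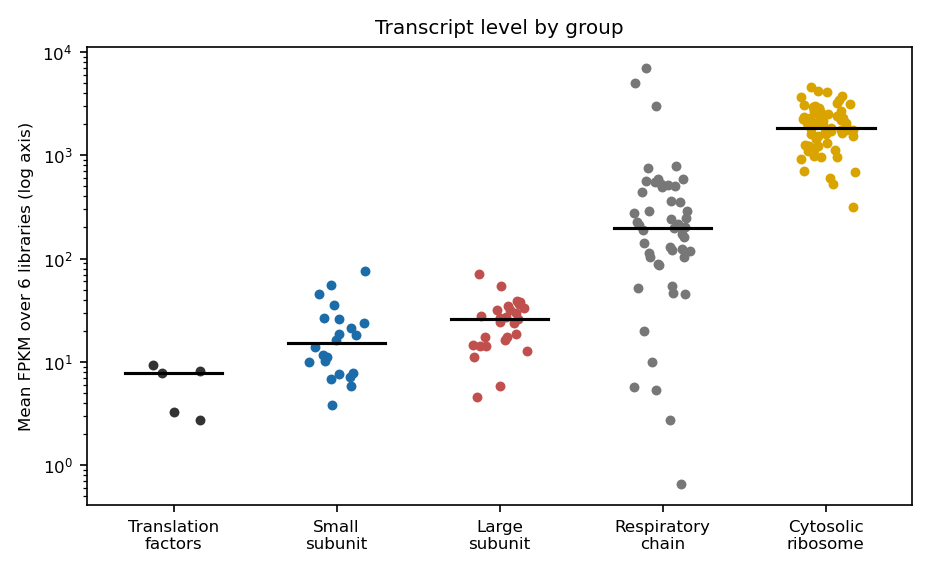
Transcript level of the mitochondrial translation genes beside the respiratory chain and the cytosolic ribosome; each point is 1 gene, the vertical axis is its mean FPKM over 6 libraries on a log axis, and bars are medians (7.80, 15.2, 25.8, 198 and 1840 from left to right). The 49 mitochondrial ribosomal protein genes lie between 3.83 and 75.8, below every cytosolic ribosomal protein gene.

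Most ribosomal protein genes of both subunits lay higher in the acidified libraries relative to the bulk of genes, without any single gene passing the test over all genes. The median log2 fold change, acidified over control, was 0.44 over the 27 large-subunit genes and 0.41 over the 22 small-subunit genes, beside -0.00 over all genes tested. A value above 0 was found for 26 and 18 of them, and over all 54 genes for 47, where 49.8% of all genes tested lay above 0 and 50.2% below. The 5 translation factors had a median of 0.03, with 3 above 0 and 2 below. With edgeR's quasi-likelihood test and p-values adjusted by Benjamini-Hochberg, 0 of the 54 genes and 0 of 17790 genes (0%) had an adjusted p under 0.05. Genes with an unadjusted p under 0.05 in that test are called nominally higher or lower from here on. Of the 54, 15 were nominally higher, where 9.29% of all genes were, and 1 was nominally lower, where 8.13% of all genes were. DESeq2 on the same counts called 4 of the 54 higher at an adjusted p under 0.05, which are L43, L23, S24 and S29, where it called 3.68% of all genes higher, and it called none of the 54 lower, where it called 2.58% of all genes lower.

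**Figure D2:**
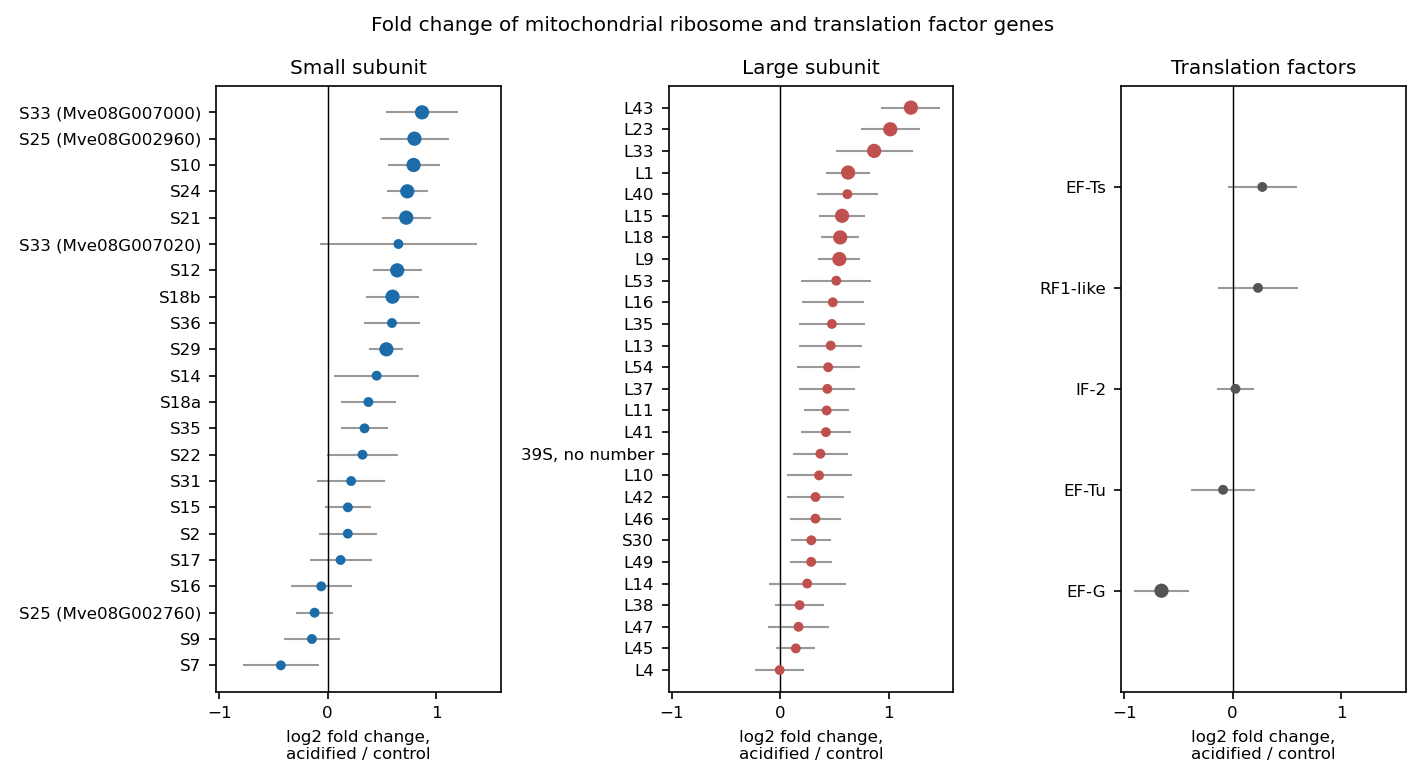
Log2 fold change (horizontal axis, acidified over control, edgeR) of each of the 54 genes, split into small subunit, large subunit and translation factors; bars are standard errors, and large points are genes with an unadjusted p under 0.05. Of the ribosomal proteins 44 lie above 0 and 5 below, and elongation factor G is the one large point on the lower side.

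These fold changes are on the scale of TMM, which sets libraries level on the bulk of genes. The TMM factors that multiply library size were 0.987, 0.853 and 0.849 in acidified replicates 1 to 3. In control replicates 1 to 3 they were 1.09, 1.08 and 1.19. With library size as the only scaling, the median of all genes tested moved to -0.33 and that of the 54 genes to 0.08. Of the 54, 34 then lay above 0 and 2 were nominally higher. The shares of all genes above 0 and nominally higher were not counted in that fit. The distance between both medians was nearly the same, 0.40 with TMM and 0.41 without it. As deposited, without such scaling, the summed FPKM of the 54 genes was 1118 to 1379 in the acidified and 1071 to 1152 in the control libraries, so on that scale the groups overlapped.

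**Figure D3:**
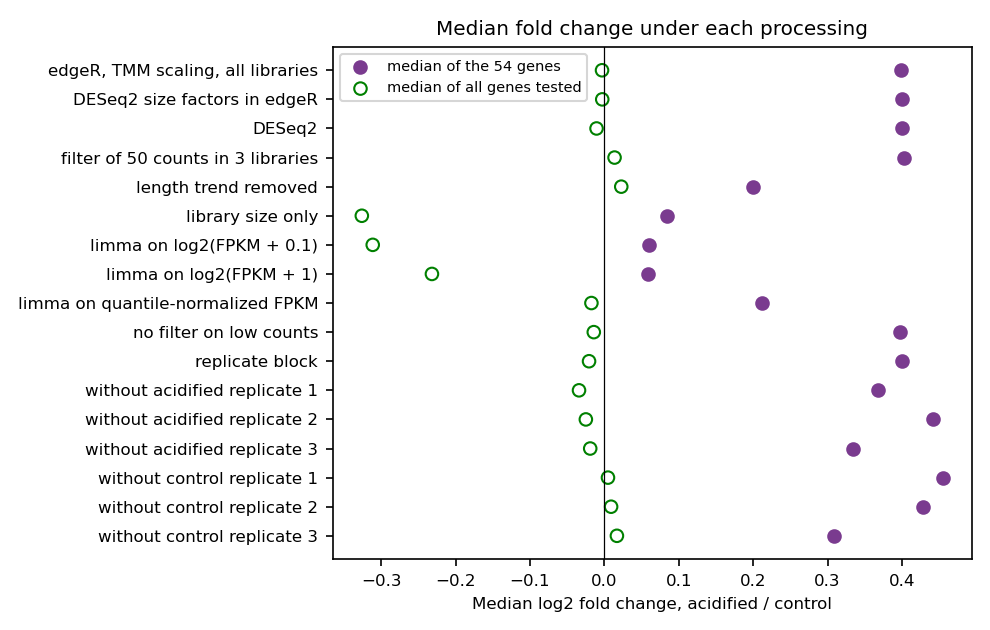
Median log2 fold change of the 54 genes (filled) and of all genes tested (open) under each way of processing, 1 per row; the horizontal axis is the log2 fold change, acidified over control. The median of the 54 genes stays to the right of 0 and of the median of all genes in every row, from 0.06 to 0.45.

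In the large subunit, L43 (Mve13G009380, chromosome 13, 31803944 to 31809349), a protein of animal and fungal mitochondria with no bacterial counterpart, had the largest difference of the 54. Its TMM-scaled CPM, counts relative to library size, were 38.8, 47.2 and 62.4 in acidified replicates 1 to 3 and 26.7, 15.9 and 21.7 in control replicates 1 to 3. Every acidified library lay above every control library. The log2 fold change was 1.21 ± 0.27 (SE), with an adjusted p of 0.125 (edgeR's quasi-likelihood test, Benjamini-Hochberg), and the value ran from 0.85 to 1.40 over 16 alternative settings, with an unadjusted p under 0.05 in each. In the DESeq2 fit the adjusted p was 0.00391, the lowest over the alternatives, whose highest was 0.305.

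L23 (Mve05G014370, chromosome 5, 47798202 to 47803841), whose bacterial relative lies at the mouth of the peptide exit tunnel, stood at 54.5, 71.8 and 77.6 CPM in the acidified libraries. In the control libraries it stood at 30.3, 45.5 and 25.1 CPM, again with no overlap. Its log2 fold change was 1.02 ± 0.27 (edgeR adjusted p = 0.154), between 0.68 and 1.30 over the alternatives, and L23 and L43 were the only members of the 54 with an unadjusted p under 0.05 in every one of them. L18 (Mve11G012250), which binds 5S rRNA in the bacterial ribosome, was almost level across the acidified libraries, at 36.7, 36.5 and 36.8 CPM, against 22.5, 24.2 and 28.3 CPM in the controls. L1 (Mve01G012610), whose bacterial relative forms the stalk beside the exit site for tRNA, stood at 45.8, 43.3 and 44.4 CPM against 27.3, 35.5 and 23.6. L9 (Mve08G012500) stood at 21.3, 20.8 and 24.3 CPM against 16.9, 15.3 and 13.3. In these 3 genes the groups did not overlap, and the log2 fold changes were 0.55 ± 0.18, 0.63 ± 0.21 and 0.55 ± 0.19. L15 (Mve03G014760), the most abundant transcript of the subunit, had 98.5, 66.2 and 96.9 CPM in the acidified libraries and 61.9, 62.4 and 51.8 in the controls, so acidified replicate 2 lay just above the controls.

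Of the remaining large-subunit genes, 2 more were nominally higher, namely L15 at 0.57 ± 0.21 and L33 (Mve02G009050), the shortest transcript of the 54, at 0.87 ± 0.35. L33 was highest in acidified replicate 3, with 8.97, 7.14 and 16.6 CPM in the acidified libraries against 5.01, 7.09 and 5.86, where acidified replicate 2 and control replicate 2 nearly coincided. The other 20 genes of the subunit lay between -0.00 (L4) and 0.62 (L40) on the log2 scale. L4 (Mve19G005570), the only one below 0, stood at 26.6, 24.5 and 22.96 CPM against 31.3, 23.6 and 19.4, with overlapping groups and a log2 fold change of -0.00 ± 0.23.

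In the small subunit, S24 (Mve01G015490, chromosome 1, 50277916 to 50283461), whose human relative corresponds to the bacterial protein S3 at the entry of the messenger RNA channel, was both the most abundant transcript and the one with the smallest p. Its CPM was 60.7, 51.2 and 67.5 in the acidified libraries and 39.7, 35.6 and 32.6 in the controls. The groups did not overlap, and the log2 fold change was 0.73 ± 0.19 (edgeR adjusted p = 0.150). S29 (Mve10G001400, chromosome 10, 5773258 to 5789249), a GTP-binding protein known in humans as DAP3, had the smallest within-group spread of the 54 genes on the log2 scale, at 119, 114 and 121 CPM against 84.8, 79.0 and 79.6. Its log2 fold change was 0.54 ± 0.16 (edgeR adjusted p = 0.167). With library size as the only scaling the log2 fold changes of S24 and S29 were 0.42 and 0.22, with unadjusted p of 0.0733 and 0.243 in edgeR's quasi-likelihood test across all genes.

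S10 (Mve02G017440), a protein of the head of the subunit in bacteria, stood at 26.0, 26.5 and 33.8 CPM in the acidified libraries and 20.4, 16.8 and 12.6 in the controls. S21 (Mve16G001780), a small protein near the site where messages are bound in bacteria, stood at 19.0, 18.4 and 25.03 CPM against 14.2, 13.1 and 10.5. S12 (Mve02G016900), which helps keep decoding accurate in bacteria, stood at 40.7, 32.2 and 29.6 CPM against 18.4, 26.8 and 20.4. The groups were apart in all 3, with log2 fold changes of 0.79 ± 0.24, 0.72 ± 0.22 and 0.64 ± 0.23.

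The small-subunit genes on the lower side were 4, and none had an unadjusted p under 0.05. S7 (Mve01G018980), which nucleates assembly of the head of the subunit in bacteria, had 9.11, 12.5 and 11.4 CPM in the acidified libraries and 11.8, 9.64 and 23.1 in the controls. Control replicate 3 alone was high, and without it the log2 fold change of -0.43 ± 0.35 became 0.04. S9 (Mve05G015720), with 23.2, 23.02 and 26.8 CPM against 28.8, 33.8 and 18.3, lay at -0.15 ± 0.26 and at 0.05 without control replicate 2. S16 (Mve10G003050) lay at -0.06 ± 0.28, and an S25 gene, described next, at -0.12 ± 0.17.

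2 names, S25 and S33, were each shared by 2 genes. Of the genes described as S25, a subunit protein particular to mitochondria, Mve08G002960 had 15.9, 13.4 and 24.3 CPM in the acidified libraries and 12.1, 11.7 and 7.02 in the controls. Mve08G002760 had 20.5, 20.005 and 18.8 CPM against 22.8, 21.4 and 20.2. Their log2 fold changes were 0.80 ± 0.32 and -0.12 ± 0.17, the second reaching 0.01 with the length trend removed. Of the S33 genes, the gene with the longer transcript, Mve08G007000, had 25.3, 36.6 and 48.2 CPM against 13.5, 26.6 and 20.1, a log2 fold change of 0.87 ± 0.33. The shorter Mve08G007020 varied more among libraries of the same group than any other of the 54 genes, with 18.8, 6.76 and 10.7 CPM against 9.43, 1.32 and 12.3, at 0.65 ± 0.73. Reads may be shared between copies, so the separate values of each pair are uncertain. The difference between copies was not tested.

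The translation factors lay on both sides of 0, with a median log2 fold change of 0.03, and at 0.10 with 4 of 5 above 0 when the trend over transcript length was removed. Their median length was 1.27 times that of all genes tested, against 0.62 times for the ribosomal proteins, and the difference between them was not tested. Elongation factor G (Mve15G005890, chromosome 15, 20612785 to 20635431), the GTPase that moves the ribosome along the message by 1 codon, was the only gene of the 54 with an unadjusted p under 0.05 on the lower side. Its CPM was 8.94, 7.61 and 7.41 in the acidified libraries and 14.1, 14.6 and 9.07 in the controls. The groups did not overlap, but control replicate 3 lay just above acidified replicate 1. The log2 fold change was -0.66 ± 0.25 (edgeR adjusted p = 0.248), and it stayed below 0 in all 16 alternatives, from -0.96 to -0.45, with an unadjusted p under 0.05 in 9 of them. That mark was missed without acidified replicate 2 or 3, and without control replicate 1 or 2.

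Elongation factor Tu (Mve08G001250), which brings aminoacyl-tRNA to the ribosome, had 20.4, 35.8 and 24.5 CPM in the acidified libraries and 31.7, 34.1 and 19.996 in the controls. Elongation factor Ts (Mve13G002110), which recharges factor Tu with GTP, had 14.1, 18.8 and 17.4 CPM against 20.5, 9.44 and 11.6. In both the groups overlapped, and the log2 fold changes were -0.09 ± 0.30 and 0.27 ± 0.32. Initiation factor IF-2 (Mve02G011130), which places the first tRNA, was the most even of the 5, at 27.0, 23.6 and 23.9 CPM against 24.7, 24.7 and 23.8, a log2 fold change of 0.03 ± 0.17. The release factor 1-like gene (Mve16G001760), a relative of proteins that end the chain at stop codons, had 3.77, 6.57 and 4.83 CPM against 5.52, 4.68 and 2.69, at 0.23 ± 0.37. Of the directions of these 4 genes, each flipped under at least 1 alternative, with library size alone as scaling for IF-2, factor Ts and the release factor and with the length trend removed for factor Tu.

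**Figure D4:**
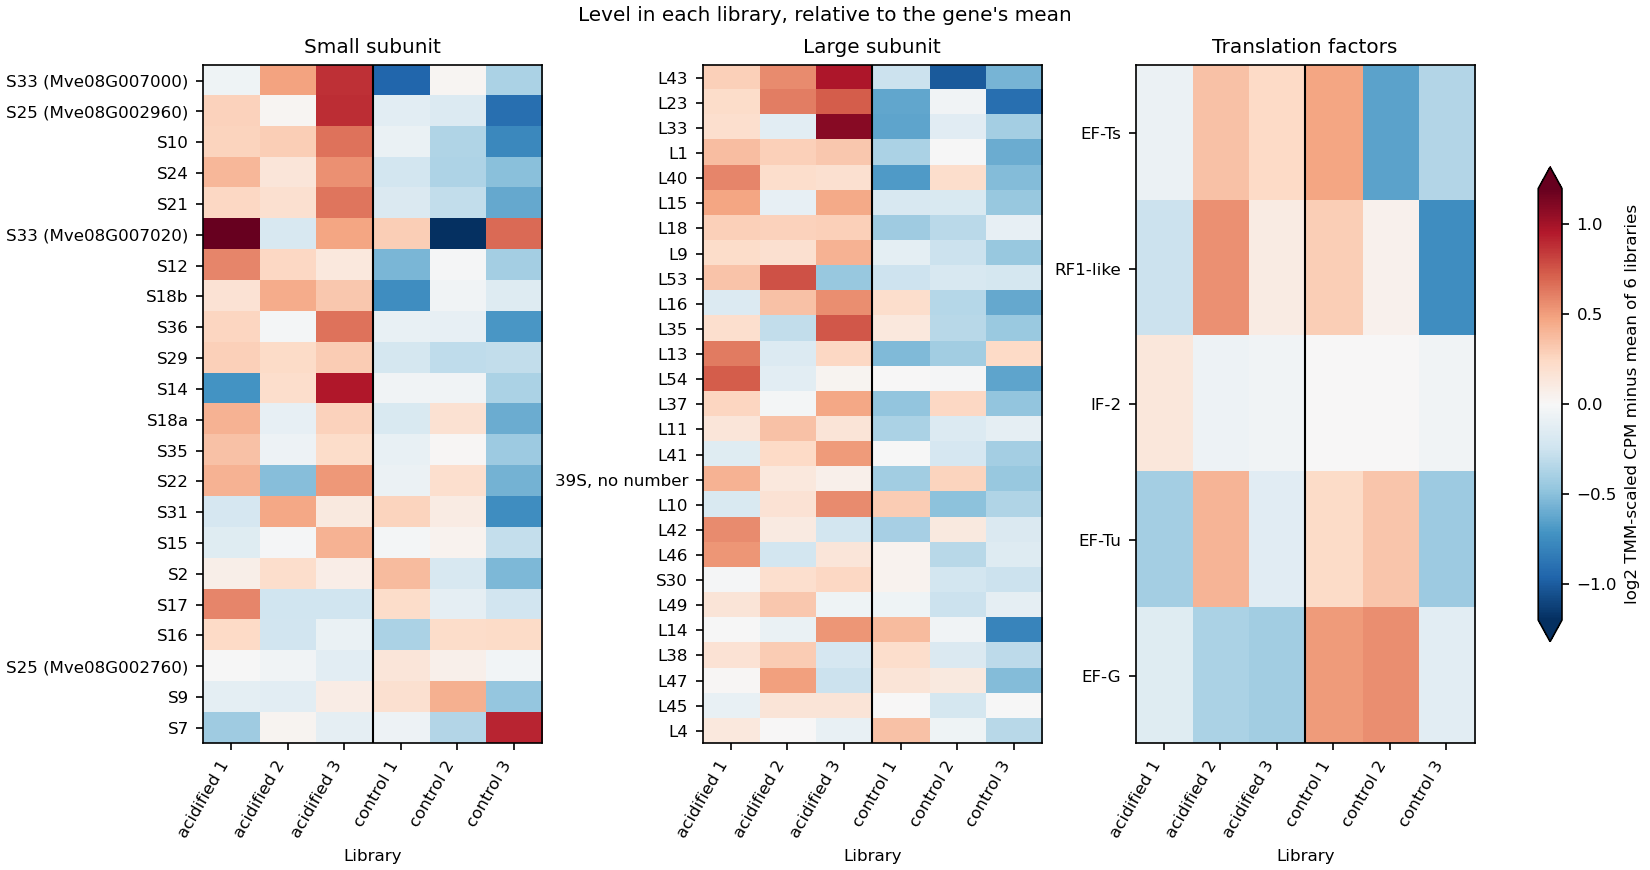
Level of each of the 54 genes in each library, as log2 TMM-scaled CPM minus the mean over the 6 libraries (colour), with genes in rows and libraries in columns, and the black line between acidified and control libraries; values beyond the ends of the scale have the end colour. Control replicate 3 is the lowest library for 29 of the 54 genes.

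The libraries took unequal part in these differences. Relative to each gene's mean over the 6 libraries, the median of the 54 genes was 0.21, 0.17 and 0.25 (log2) in acidified replicates 1 to 3 and -0.06, -0.10 and -0.41 in control replicates 1 to 3. Control replicate 3 was thus well below the other 2 controls, while over all genes tested the medians of the 6 libraries lay between 0.00 and 0.04. Acidified replicate 3 was the highest library for 22 of the 54 genes and control replicate 3 the lowest for 29. Without control replicate 3, the median log2 fold change was 0.31, and 8 of the 54 genes were nominally higher, of which 7 were among those 15. The share of all genes nominally higher in that fit was not counted. The groups did not overlap, with the acidified libraries higher, for 17 of the 54 genes, where this held for 12.2% of all genes tested. They did not overlap the other way for 1 gene, elongation factor G, where this held for 13.4% of all genes. The median within-group SD of log2 CPM was 0.33 for the 54 genes and 0.41 for all genes tested.

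Transcript length went with the fold change in these libraries. A relative length was recovered for each gene from the ratio of count to FPKM. Over all genes tested, the median log2 fold change went from 0.29 in the shortest of 10 equal length classes to -0.35 in the longest. Of the 54 genes, 29 were in the shortest 3 classes and 4 in the longest 3, and their median length was 0.68 times that of all genes tested. Elongation factor G, factor Tu, S7 and the S25 gene Mve08G002760, all at or below -0.09, were those 4, with lengths of 1.46 to 1.66 times the median. The value of 48 of the 54 genes lay above the median of its own length class. With the trend over length taken out of each library, the median of the 54 genes was 0.20 beside 0.02 for all genes. Then 48 of the 54 lay above 0, where 9158 of all 17790 genes tested did. Nominally higher were 6 of the 54, where 8.72% of all genes were, so that count alone does not set the 54 apart. Those 6 were L43 (0.96), L23 (0.92), S10 (0.56), S21 (0.49), S24 (0.47) and S29 (0.45). None was nominally lower, where 6.57% of all genes were, and elongation factor G then lay at -0.51 with an unadjusted p of 0.07998 in edgeR.

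**Figure D5:**
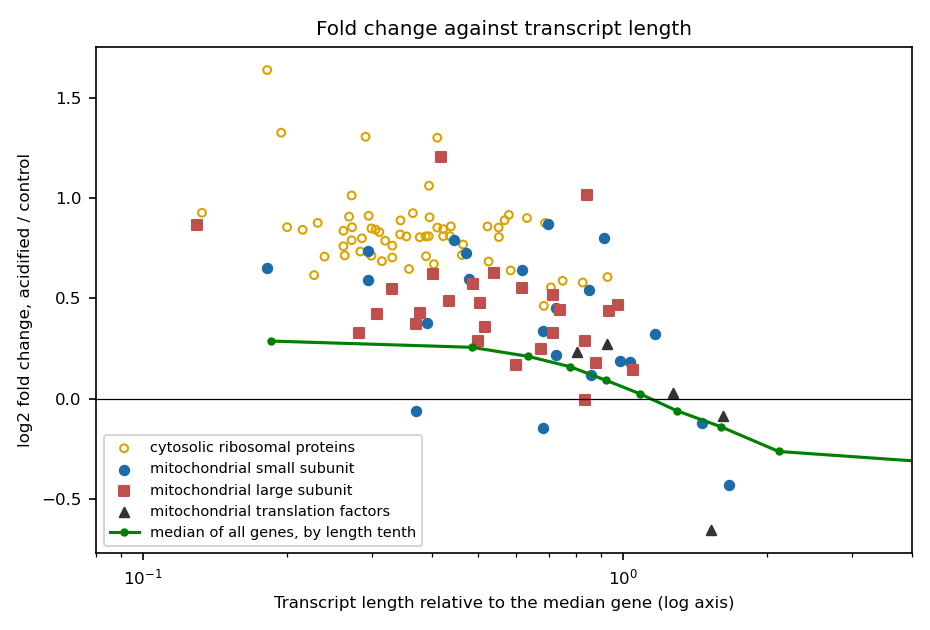
Log2 fold change (vertical axis, acidified over control) against transcript length relative to the median gene (horizontal, log axis) for small-subunit, large-subunit and translation factor genes and for cytosolic ribosomal proteins; the green line joins the medians of all genes in 10 length classes, from 0.29 to -0.35, the last class lying partly beyond the axis. Most mitochondrial ribosomal proteins lie above the green line and below most cytosolic ones.

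The ribosomal proteins were also split into those with a bacterial counterpart and those particular to mitochondria. The 27 with a counterpart had a median log2 fold change of 0.47, with 11 nominally higher and 0 lower. The 21 without one had a median of 0.42, with 4 nominally higher and 0 lower. Of all genes tested, 9.29% were nominally higher and 8.13% lower. With the length trend removed the order of the medians turned, to 0.25 with a counterpart and 0.31 without. Then 4 with a counterpart and 2 without were nominally higher, where 8.72% of all genes were. The difference between both sets was not tested. This split was made after the values were seen and rests on the names of the human proteins. It leaves out the 39S gene whose description has no number, and it counts S36 among those without a counterpart.

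The rest of the mitochondrial gene expression system was read out of the same fit. Of all genes tested, 9.29% were nominally higher and 8.13% lower, and 8.72% and 6.57% with the length trend removed. These shares stand beside the counts of each list below. Among 15 genes of mitochondrial transcription and RNA processing, the median log2 fold change was 0.35, with 5 nominally higher and 0 lower. A ribonuclease P protein 1 homolog (Mve11G011520), part of the enzyme that trims mitochondrial tRNAs, lay at 1.06 ± 0.26, and transcription termination factor 4 (Mve07G004300), which in mammals also acts in ribosome assembly, at 0.86 ± 0.24. A second ribonuclease P protein 1 homolog (Mve07G011540) and the RNA helicase SUPV3L1 (Mve13G010110), which unwinds RNA for decay, lay at -0.13 ± 0.37 and -0.34 ± 0.43. Among 13 mitochondrial aminoacyl-tRNA ligases, the enzymes that load tRNAs, 2 were nominally higher and 2 lower, with a median of 0.21. Asparagine and tyrosine ligases (Mve09G001830 and Mve01G006010) lay at 0.76 ± 0.20 and 0.69 ± 0.21, and phenylalanine and cysteine ligases (Mve06G000670 and Mve09G004920) at -1.18 ± 0.40 and -0.69 ± 0.26. In these 4 ligases the groups did not overlap. Of the 13 ligases, 3 had all acidified libraries higher and 2 all lower, where this held for 12.2% and 13.4% of all genes tested. With the length trend removed, the ligases had 2 nominally higher and 1 lower, with a median of 0.076. A second gene with the same phenylalanine ligase description (Mve06G000450) lay at 0.21 ± 0.44, with overlapping groups. Counts of Mve06G000670 were low, at 2.63, 1.78 and 1.14 CPM in the acidified libraries against 4.87, 3.84 and 3.88 in the controls.

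Among 7 genes of ribosome assembly, rRNA modification and recycling, the median was 0.39, with 1 nominally higher and 0 lower. That gene was the ribosome-recycling factor (Mve14G009470), which splits the ribosome after termination together with a second form of elongation factor G, at 0.68 ± 0.24. The nitric oxide-associated protein 1-like GTPase (Mve13G003080), a relative of an assembly factor, lay at 0.52 ± 0.28 and the ribosome-releasing factor 2 gene (Mve02G012250), that second form, at -0.18 ± 0.24 and at 0.01 with the length trend removed. The 5 genes that prepare or correct charged tRNAs had a median of 0.42, with 1 nominally higher, a methionyl-tRNA formyltransferase (Mveptg000047l_1G000070) that makes the initiator, at 0.59 ± 0.21, and with amidotransferase subunit B (Mve08G006070) at 0.42 ± 0.21. Among 16 genes of protein import the median was 0.35, with 3 nominally higher and 1 lower. Tim16 and Tim8 A (Mve09G011600 and Mve09G001860), of the inner membrane and intermembrane space, lay at 0.64 ± 0.17 and 1.02 ± 0.33, and TOM70 and TOM40 (Mve07G006160 and Mve07G012870), a receptor and the pore of the outer membrane, at -0.80 ± 0.25 and -0.41 ± 0.30. With the length trend removed, the assembly list had 0 nominally higher, the list of charged tRNAs 2, and the import list 3, with 0 lower. Over all genes tested, 9.29% were nominally higher and 8.13% lower, and 8.72% and 6.57% with that trend removed.

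The respiratory chain list, whose mitochondrially encoded subunits are made on this ribosome, had 51 genes with a median log2 fold change of 0.55. Of these, 28 were nominally higher and 0 lower, where 9.29% and 8.13% of all genes tested were. With the length trend removed 11 were nominally higher, where 8.72% of all genes were. The summed CPM of the list was 25041, 26965 and 31250 in the acidified libraries. In the controls the list stood at 21903, 21212 and 15606, and control replicate 3 was again the lowest. Its members with the smallest p were NDUFB11 (Mve08G006970) and an assembly factor of complex I (Mve16G000460), at 0.82 ± 0.18 and 1.01 ± 0.22 on the higher side, and a probable NADH dehydrogenase (Mve11G010380) and another assembly factor (Mve05G008990), at -0.31 ± 0.21 and -0.39 ± 0.37, on the lower. The table held 2 genes described as cytochrome c oxidase subunit I encoded in the mitochondrion, both on one contig. They lay at 0.68 ± 0.23 and 0.56 ± 0.21, and both are already counted among the 51 genes and the 28 nominally higher. The cytosolic ribosomal protein genes had a median of 0.81 over 61, with 59 nominally higher and 0 lower, S27 (Mve17G006340) at 1.06 ± 0.16 and S14 (Mve01G001660) at 0.91 ± 0.15 having the smallest p. With the length trend removed the medians were 0.57 for the cytosolic ribosome, 0.34 for the respiratory chain and 0.20 for the 54 genes. No test of the difference between these lists was run.

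A further 26 genes carried a gene ontology term for the mitochondrial ribosome without a matching description. Of these, 25 were tested, with a median log2 fold change of 0.48, and 15 of them were described only as uncharacterized or hypothetical proteins. Of the 25, 9 were nominally higher and 1 lower, where 9.29% and 8.13% of all genes tested were. With the length trend removed the median of the 25 was 0.30. Then 3 were nominally higher and 1 lower, where 8.72% and 6.57% of all genes were. The smallest p belonged to a putative ribosomal protein L55 (Mve03G016320), a large-subunit protein particular to animal mitochondria, with a log2 fold change of 0.85 ± 0.20 and 66.4 ± 10.96 (SD, n = 3) against 46.5 ± 4.81 FPKM (SD, n = 3). A gene described as mitochondrial 28S ribosomal S28 (Mve18G002850) lay at 0.41 ± 0.22. These 26 genes were looked at after the values of the 54 had been seen.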

How the data were processed

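Mantle RNA was purified with oligo(dT), made into strand-marked libraries and sequenced as paired ends, per the labels' protocols. The authors deposited 1 table with a raw count and an FPKM value per gene and library. The submitters' processing notes name cutadapt 1.9, HISAT2 2.2.1, StringTie 2.1.6, DESeq2 and edgeR without their roles. The genome build, annotation and strand setting of the counting are not stated there or in the labels. Of the table, 12 columns of per-sample values match no sample described here and were not used.

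Deposited counts of 25145 genes were filtered with filterByExpr, scaled by TMM and tested with edgeR 4.0.16 (quasi-likelihood test, 3 against 3 libraries, R 4.3.3), with Benjamini-Hochberg adjustment over 17790 genes. Standard errors are the log2 fold change divided by the square root of F. CPM values are TMM-scaled. Deposited FPKM were used to set levels of genes beside each other, and relative length was the ratio of count to FPKM. Alternatives were DESeq2 1.42.0, its size factors, library size alone, other filters, limma 3.58.1 on log2(FPKM + 1), log2(FPKM + 0.1) or quantile-normalized FPKM, a length-trend offset, a replicate block, each library left out, and other choices of members. On simulated counts from these libraries, the edgeR fit called 2.04% of 49 genes made to differ by 1 on the log2 scale. It called 50% of 48 genes made to differ by 2. In that simulation 16930 of 17117 genes did not differ. Each gene was drawn independently, so the simulation holds no shift of a library shared by many genes. The share that differs in the data is also unknown, so for these reasons the rates may not hold there.

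Genes named with values in every library are, per subunit, the 5 with the smallest p above 0, up to 3 below 0, and the most abundant one, then all factors, and genes sharing a name. Of each related list, the 2 genes with the smallest p in each direction are named. L33, S16, S36, L55, S28, the second phenylalanine ligase gene and the cytochrome oxidase genes were added after their values were seen. The members and lists were chosen with earlier results of these data known, and list patterns were narrowed after descriptions were read. The bacterial-counterpart split and the gene ontology members were added after the data were seen.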

Additional observations from a re-analysis of the deposited data

How the results depend on the processing

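The median log2 fold change of the 54 genes stayed above 0 under every alternative run. It was 0.20 with the length trend removed, 0.084 with library size only, 0.060 and 0.058 with limma on FPKM at pseudocounts 0.1 and 1, and 0.21 with quantile-normalized FPKM. It was 0.31 to 0.45 with 1 library left out. Of the 54 genes, 31 and 30 lay above 0 with limma on FPKM at pseudocounts 0.1 and 1, against 47 with edgeR and TMM. The share of all genes above 0 in those limma fits was not counted. The distance of the median from that of all genes was 0.18 with the length trend removed and 0.23 with quantile-normalized FPKM, against 0.40. The genes higher at an unadjusted p under 0.05 numbered 6, 2, 2, 2 and 5 (length, library size, limma with 0.1, limma with 1, quantile). They numbered 8 to 15 with 1 library left out, against 15. The share of all genes so higher was 8.72% with the length trend removed and was not counted under the other alternatives. There, the counts alone do not set the 54 genes apart from all genes. The lower gene, elongation factor G, was lost (0 genes) with the length trend removed, with quantile-normalized FPKM and with the replicate block, and the count was 0 to 1 with 1 library left out. DESeq2 called 1113 genes in all and 4 of the 54. With 1 library left out edgeR called 0 to 2 genes in all, the 2 without acidified replicate 1, and 0 of the 54. The cause of these shifts was not tested.

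No label says that the replicate numbers pair the libraries. Deviations from the group mean correlated over genes at 0.009, -0.044 and -0.007 between same-numbered libraries. With 3 libraries per group, such correlations cannot exclude a pairing. With the replicate as a block, 11 of the 54 genes were higher, 0 were lower, and L4 moved to 0.021. Of 736 values of 46 named genes, 25 changed sign and 12 passed an adjusted p of 0.05, all of these in DESeq2. With the length trend removed, elongation factor Tu lay at 0.079, the S25 gene Mve08G002760 at 0.0061 and ribosome-releasing factor 2 (Mve02G012250) at 0.0060. IF-2 lay at -0.29 with library size only, at -0.31 and -0.28 with limma at pseudocounts 0.1 and 1, and at -0.070 with quantiles. The release factor 1-like gene lay at -0.087, -0.079 and -0.064 under the first 3 of these, and factor Ts at -0.051 with library size only and -0.0027 with limma at pseudocount 1.

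With 1 library left out, the log2 fold change of S7 ran from -0.66 to 0.039, of IF-2 from -0.047 to 0.057, of S9 from -0.36 to 0.051, of factor Tu from -0.36 to 0.069, of the release factor 1-like gene from -0.013 to 0.46 and of L4 from -0.15 to 0.20. That of the ribonuclease P gene Mve07G011540 ran from -0.46 to 0.11 and of SUPV3L1 (Mve13G010110) from -0.68 to 0.075.

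Depth did not limit detection of the 54 genes, each with at least 47 counts in every library.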
